A study of Mus musculus with 6 samples.

Results

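Caveolins, cavins and the proteins that hold the caveola neck were described in mouse bone marrow mesenchymal stem cells (BMMSCs), which are cultured from the adherent fraction of flushed marrow. The 7 genes, Cav1, Cav2, Ptrf (Cavin1), Sdpr (Cavin2), Prkcdbp (Cavin3), Ehd2 and Pacsin2, were selected by name from the 36870 distinct symbols of the deposited table, and each was found in a single row. They were chosen from these same libraries, because the level of Cav1 was not lower after Tet1/Tet2 siRNA while other stromal genes were, so their values in the comparison of groups are given as a description with no test. All 7 passed the minimum mean of 0.1 RPKM that defined the 13266 genes tested.

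Caveolae are small flask-shaped pits of the plasma membrane that are abundant in fibroblasts, adipocytes, smooth muscle and endothelium. Caveolins are inserted in the membrane and form the inner coat, and cavins are recruited from the cytosol as an outer coat, without which caveolin stays in the membrane but the pit is not shaped. Ehd2 is an ATPase that holds the neck of the pit at the surface, Pacsin2 bends membrane through its F-BAR domain, and the pits flatten when the membrane is stretched.

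RNA-seq covered 6 libraries of total RNA from BMMSCs of C57BL/6 mice, 3 from control cells and 3 from cells treated with siRNAs against both Tet1 and Tet2, which encode enzymes that oxidize 5-methylcytosine in DNA. Control cells received a non-targeting siRNA according to the sample labels, and the study's sequencing methods call them vehicle-treated. Values are RPKM, that is, reads per kilobase of gene for a fixed number of mapped reads. Read totals are not in the table, and the depth estimated from the spacing of low values was 37700000, 33200000 and 32400000 reads in the control libraries and 38400000, 38500000 and 35500000 reads in the siRNA libraries. The labels do not say whether replicates were separate animals or cultures, so p-values measure only the spread between these samples.

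The targeted genes were examined first. Control libraries held Tet2 at 2.57, 4.08 and 3.71 RPKM, and siRNA libraries at 0.358, 0.238 and 0.202 RPKM. Tet2 fell in all 3 siRNA libraries, with a log2 fold change of -1.80 (SE 0.13, Benjamini-Hochberg adjusted p = 2.88e-05 from limma). The pseudocount of 1 compresses this change, which was -3.66 with a pseudocount of 0.01, and the mean RPKM of Tet2 in siRNA cells was 7.7% of control. Tet1 was under 0.1 RPKM in each library and was not tested. The third family member, Tet3, averaged 7.03 ± 1.55 RPKM in control and 7.66 ± 0.767 RPKM in siRNA-treated cells (SD, n = 3), with overlapping libraries.

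The cell type label was compared with marker lists. Of 20 stromal markers, 18 reached the minimum, and their summed level was 2211, 2061 and 2769 RPKM in control libraries and 307.3, 430.0 and 612.9 RPKM in siRNA libraries, with Sparc the most abundant. Thy1, a surface marker often used for mesenchymal cells, and Lum had mean values under 0.1 RPKM in both groups. All 17 macrophage markers reached the minimum, and their sum was 12220, 11430 and 9287 RPKM in control and 20940, 19820 and 17870 RPKM in siRNA libraries. RNA of macrophage marker genes therefore exceeded RNA of stromal marker genes in every library, control libraries included, with Lyz2, the most abundant of them, at 4439 ± 782.9 RPKM (SD, n = 3) in control cells. In bulk RNA, fewer cells of a type and less RNA per cell cannot be told apart, and this holds for each value below.

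The caveolins, which make the inner coat, had overlapping levels in the control and siRNA groups. Cav1 (ENSMUSG00000007655.16, chromosome 6 from 17306335 to 17341452 of GRCm38) was at 7.59, 8.11 and 7.62 RPKM in control and at 7.30, 8.86 and 11.6 RPKM in siRNA libraries. Replicate 3 of the siRNA group stood above all other libraries and siRNA replicate 1 stood below all controls, so the groups overlapped. The means were 7.78 ± 0.292 and 9.27 ± 2.20 RPKM (SD, n = 3), which put the siRNA mean at 119.1% of control and the log2 fold change at 0.21 (SE 0.14). Without siRNA replicate 3 the log2 fold change of Cav1 was 0.04, and without siRNA replicate 1 it was 0.35. Behind these values stood an estimated 678 to 786 reads in control and 770 to 1134 reads in siRNA libraries.

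Cav2, the partner that needs caveolin-1 to reach the cell surface, lies 17220 bases before Cav1 on the same strand (ENSMUSG00000000058.6, chromosome 6 from 17281185 to 17289115). Its level was 26.4, 28.3 and 28.6 RPKM in control and 30.3, 27.4 and 31.0 RPKM in siRNA libraries. Replicate 2 of the siRNA group lay inside the control range and the other siRNA libraries above it, so the groups overlapped. The means were 27.8 ± 1.21 and 29.6 ± 1.90 RPKM (SD, n = 3), a log2 fold change of 0.09 (SE 0.07). It was 0.05 without control replicate 1 or siRNA replicate 3 and 0.14 without siRNA replicate 2. The overlap depended on scaling, since after median ratio scaling the siRNA libraries were all above control for Cav2, and after quantile normalization for both Cav1 and Cav2.

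Cavins, the outer coat, were lower in every siRNA library than in any control library. Ptrf, the cavin that all caveolae require (ENSMUSG00000004044.9, chromosome 11 from 100956733 to 100970887), was at 46.9, 46.9 and 52.8 RPKM in control and at 13.6, 17.2 and 23.6 RPKM in siRNA libraries. The control libraries lay close together, and siRNA replicate 3, the highest of its group, was still far below them. The means of 48.9 ± 3.43 and 18.1 ± 5.04 RPKM (SD, n = 3) correspond to a 2.69-fold lower level, and the log2 fold change was -1.41 (SE 0.17).

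Sdpr, the cavin that binds phosphatidylserine and widens caveolae into tubules when abundant (ENSMUSG00000045954.7, chromosome 1 from 51289126 to 51302960), was at 4.83, 4.82 and 6.13 RPKM in control and at 0.951, 1.26 and 1.81 RPKM in siRNA libraries. The groups were far apart, and the 3 siRNA values rest on an estimated 112, 148 and 196 reads. The mean was 5.26 ± 0.758 RPKM in control and 1.34 ± 0.434 RPKM in siRNA cells (SD, n = 3), 3.93-fold lower, with a log2 fold change of -1.43 (SE 0.15). The pseudocount of 1 compresses the change of a gene at this level, and with a pseudocount of 0.01 the log2 fold change was -2.01.

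Prkcdbp, a cavin first found as a binding partner of protein kinase C delta (ENSMUSG00000037060.3, chromosome 7 from 105480083 to 105482300), was at 11.9, 11.65 and 11.5 RPKM in control and at 3.06, 2.69 and 5.27 RPKM in siRNA libraries. Control libraries were close together and siRNA replicate 3 was the highest of its group. The mean went from 11.7 ± 0.212 to 3.67 ± 1.40 RPKM (SD, n = 3), 3.18-fold lower, with a log2 fold change of -1.48 (SE 0.18).

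At the neck, Ehd2 (ENSMUSG00000074364.6, chromosome 7 from 15946958 to 15967567) was at 33.7, 30.8 and 34.6 RPKM in control and at 5.41, 7.74 and 10.2 RPKM in siRNA libraries. The groups did not overlap and the difference was the largest of the 7 genes on the log2 scale. Its means of 33.0 ± 2.03 and 7.78 ± 2.40 RPKM (SD, n = 3) give a 4.25-fold lower level and a log2 fold change of -1.99 (SE 0.18). Pacsin2 (ENSMUSG00000016664.16, chromosome 15 from 83375607 to 83464606), which is also expressed in cells that lack caveolae, was at 52.5, 54.3 and 56.3 RPKM in control and at 44.4, 46.3 and 48.2 RPKM in siRNA libraries. All siRNA values were below control, by a small margin, and after quantile normalization the groups overlapped. The log2 fold change was -0.23 (SE 0.06), with the siRNA mean at 85.2% of control.

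Libraries did not overlap, with siRNA lower, for 5 of the 7 genes, beside 35.9% of all genes tested, and with siRNA higher for 0 of 7, beside 19.8%. The group mean was more than 2-fold lower for 4 of the 7, Ptrf, Sdpr, Prkcdbp and Ehd2. The genes were chosen on this contrast, so nothing is read from these counts. Among all genes tested, 747 (5.63%) were lower and 126 (0.95%) higher by more than 2-fold on the scale of RPKM + 1 at p under 0.05 before adjustment, and with the plain ratio of group means 1571 were lower and 359 higher. Ranked by log2 fold change of RPKM + 1 among the 13266 genes, 1.3% of genes were further down than Ehd2, 2.8% than Prkcdbp, 3.0% than Sdpr and 3.1% than Ptrf. For Pacsin2 the share was 32.8%, for Cav2 71.3% and for Cav1 82.0%. Across the 13266 genes the median log2 fold change was -0.09, and quantile normalization moved it to 0.06, so small differences such as those of Cav2 and Pacsin2, and list medians near zero, depend on the scaling.

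**Figure D1:**
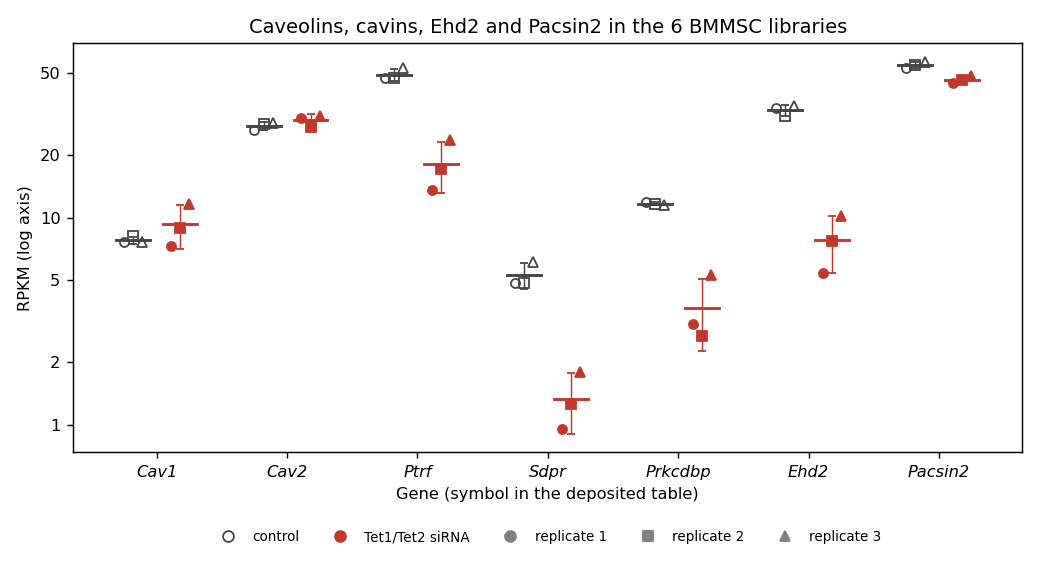
Level of each of the 7 genes in RPKM on a log axis, with open gray marks for the 3 control libraries, filled red marks for the 3 Tet1/Tet2 siRNA libraries, mark shape for the replicate number, and lines and bars for mean and SD. Libraries of the groups overlap for Cav1 and Cav2 and lie apart for the cavins, Ehd2 and Pacsin2. Relative to stromal markers, the log2 difference of the latter 5 genes ran from 0.10 for Ehd2 to 2.00 for Pacsin2. Libraries overlapped on that scale for Sdpr, Prkcdbp and Ehd2. The stromal markers were themselves lower in siRNA libraries, which shifts every gene upward on that scale.

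The order of the levels changed with these differences. In control cells the mean RPKM ran from Pacsin2 and Ptrf, whose libraries overlapped, through Ehd2, Cav2, Prkcdbp and Cav1 to Sdpr, and each of these later neighbours lay apart in its libraries. In siRNA-treated cells the order was Pacsin2, Cav2, Ptrf, Cav1, Ehd2, Prkcdbp and Sdpr, and Cav1 and Ehd2 overlapped. Cav2 thus stood below Ptrf and Ehd2 in control cells and above both in siRNA-treated cells.

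Ratios between genes of a library are not changed by a single scaling factor per library, although quantile normalization can change them. The summed RPKM of the cavins was 1.87, 1.74 and 1.95 times that of the caveolins in control libraries and 0.469, 0.584 and 0.719 times in siRNA libraries. Cavin RNA exceeded caveolin RNA in each control library and was below it in each siRNA library. The ratio of Ptrf to Cav1 was 6.29 ± 0.584 in control and 1.95 ± 0.0810 in siRNA cells (SD, n = 3), and the ratio of Ehd2 to Cav1 was 4.26 ± 0.408 and 0.830 ± 0.0776 (SD, n = 3). Within the cavins the proportions moved less. The ratio of Sdpr to Ptrf was 0.103, 0.103 and 0.116 in control and 0.0699, 0.0730 and 0.0767 in siRNA libraries, which did not overlap. The ratio of Prkcdbp to Ptrf was 0.254, 0.249 and 0.218 in control and 0.225, 0.156 and 0.224 in siRNA libraries, which overlapped. The ratio of Cav2 to Cav1 also overlapped, at 3.57 ± 0.154 and 3.30 ± 0.761 (SD, n = 3).

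Spread within the siRNA group differed between the genes. The coefficient of variation over the 3 siRNA libraries was 27.8% for Ptrf, 32.4% for Sdpr, 38.0% for Prkcdbp and 30.8% for Ehd2, compared with 7.0%, 14.4%, 1.8% and 6.1% in control. For Cav1 it was 23.7% in siRNA and 3.8% in control libraries, for Cav2 6.4% and 4.3%, and for Pacsin2 4.1% and 3.5%. Replicate 3 had the highest value of the siRNA group for each of the 7 genes, and it also had the highest summed level of stromal and smooth muscle markers and the lowest of macrophage markers in that group. The part of stromal RNA content in these differences was not tested.

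Set against the stromal markers of the same library, the differences were other than in RPKM. Those markers were lower in siRNA libraries, which entered the choice of the 7 genes, so every gene shifts upward on this scale. On the log2 scale, with 0.01 RPKM added, Cav1 lay at -2.33, -2.02 and -2.68 relative to the median stromal marker in control libraries and at 0.26, -0.01 and 0.10 in siRNA libraries. The difference between groups on this scale was 2.46 for Cav1, 2.32 for Cav2 and 2.00 for Pacsin2. It was 0.77 for Ptrf, 0.50 for Prkcdbp, 0.23 for Sdpr and 0.10 for Ehd2, so the cavins and Ehd2, lower in RPKM, were not lower on this scale. Libraries lay apart for Ptrf and overlapped for Sdpr, Prkcdbp and Ehd2. Ehd2 lay at -0.18, -0.10 and -0.50 relative to the median stromal marker in control and at -0.17, -0.21 and -0.09 in siRNA libraries.

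The lower level of stromal genes in these libraries entered the choice of the 7 genes, so it is also given with no test. All siRNA libraries were below all control libraries for 17 of the 18 stromal markers that reached the minimum, beside 35.9% of all genes tested, with a median log2 fold change of -2.34. On the scale of log2(RPKM + 1) the differences were largest for Postn, a matrix protein of fibroblasts, with means of 36.5 ± 4.97 and 3.60 ± 1.99 RPKM (SD, n = 3), and Col3a1, a fibrillar collagen, with means of 124.6 ± 31.3 and 14.1 ± 5.43 RPKM (SD, n = 3). Both had a log2 fold change of -3.10.

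At an adjusted p under 0.05 from limma, 29.8% of all genes tested fell and 14.7% rose. All 6 smooth muscle markers fell, with a median of -1.60. Their summed level was 1517, 1399 and 1287 RPKM in control and 255.5, 338.5 and 452.3 RPKM in siRNA libraries. These markers may be among the stromal genes that entered the choice of the 7 genes, so their p-values are not independent of it. The count that fell was 4 with no filter, and 4 at a mean of at least 1 RPKM, where Myh11 and Des were not tested. It was 5 after quantile normalization and without control replicate 1, siRNA replicate 1 or siRNA replicate 2. Acta2, the smooth muscle actin that is also made by myofibroblasts and the most abundant of these markers, fell from 787.7 ± 57.6 to 156.5 ± 42.5 RPKM (SD, n = 3; adjusted p = 2.88e-05 from limma), and Myl9, a myosin light chain, fell by 2.12 on the log2 scale (adjusted p = 0.000154 from limma).

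Other cells that make caveolae were examined through their own markers. Adipocyte markers rose in 5 of 6 tested, beside 14.7% of all genes tested, with a median of 0.97. Their summed level was 303.0, 302.7 and 246.9 RPKM in control and 704.8, 645.7 and 548.7 RPKM in siRNA libraries. Fabp4, a fatty acid carrier that macrophages also express, made up most of that sum and rose from 277.0 ± 32.2 to 615.7 ± 81.4 RPKM (SD, n = 3; adjusted p = 0.000161 from limma). Cidec, a lipid droplet protein, rose by 1.25 on the log2 scale (adjusted p = 0.0001003 from limma), from 1.13 to 4.06 RPKM. Lep was at most 0.121 RPKM in any library and Adipoq stood at 3.35 ± 0.551 and 7.60 ± 1.61 RPKM (SD, n = 3). The count of adipocyte markers that rose was 4 with either other pseudocount, either other filter or equal library sums. Retn was not tested at a mean of at least 1 RPKM. It was also 4 without any single library other than control replicate 3. After median ratio scaling or quantile normalization it was 6.

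Endothelial markers summed to 5.26, 5.26 and 5.77 RPKM in control and 8.72, 8.14 and 8.34 RPKM in siRNA libraries, and Tek, Tie1, Cldn5 and Robo4 were under 0.1 RPKM in every library. Of the 7 tested, 2 fell and 3 rose, beside 29.8% and 14.7% of all genes tested, with a median of -0.20. Only 1 fell without siRNA replicate 1 or siRNA replicate 2, and only 1 rose without siRNA replicate 1. Both counts were 1 with no filter, and 1 at a mean of at least 1 RPKM, where only Kdr and Vwf were tested. Vwf, the most abundant, rose from 1.93 ± 0.199 to 6.10 ± 0.157 RPKM (SD, n = 3; adjusted p = 1.96e-05 from limma). That rise is larger than the rise of the list's sum, so the higher sum rests on Vwf. Kdr, a receptor of vascular endothelial growth factor, fell from 1.58 ± 0.201 to 0.604 ± 0.0543 RPKM (SD, n = 3; adjusted p = 0.00031 from limma). Esam was called higher and Emcn lower, each at most 0.49 RPKM in any library. Megakaryocyte markers, with Gp9 under 0.1 RPKM in every library, gave 1 lower and 2 higher of 4 tested and a median of 0.32. Among all genes tested, 29.8% were lower and 14.7% higher. Pf4, a platelet chemokine also found in macrophages and nearly the whole of this list's sum, rose from 235.1 ± 52.4 to 603.3 ± 55.8 RPKM (SD, n = 3; adjusted p = 0.000228 from limma). Ppbp rose and Gp1bb fell, both at most 1.25 RPKM in any library, and the summed level of the list was 285.1, 242.2 and 181.0 RPKM in control and 540.9, 647.5 and 624.8 RPKM in siRNA libraries.

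Macrophage markers rose in 9 of 17 and fell in 2, beside 14.7% and 29.8% of all genes tested, with a median log2 fold change of 0.27. Lyz2, a lysozyme, rose by 1.36 on the log2 scale (adjusted p = 0.001005 from limma) and Tyrobp, a signalling adaptor, by 1.35 (adjusted p = 0.000578 from limma), each higher in all 3 siRNA libraries. The scavenger receptor Msr1 fell by 0.76 (adjusted p = 0.000183 from limma) and the mannose receptor Mrc1 fell by 0.27 (adjusted p = 0.0327 from limma). Only 1 macrophage marker fell without control replicate 2, siRNA replicate 1 or siRNA replicate 2. That count was also 1 with no filter and after median ratio scaling or quantile normalization. Whether macrophages contributed to the level of Cav1 was not tested.

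Paralogs of the 7 genes were next compared. All 5 that reached the minimum fell, beside 29.8% of all genes tested, with a median log2 fold change of -1.11. Murc, 1 of the 5, was at most 0.411 RPKM in any library and lay close to the threshold. Ehd1, an ATPase of endosome recycling, fell from 53.3 ± 2.84 to 24.3 ± 3.26 RPKM (SD, n = 3; log2 fold change -1.11, SE 0.10, adjusted p = 6.58e-05 from limma). Ehd3 fell from 5.59 ± 0.713 to 1.11 ± 0.237 RPKM (SD, n = 3; log2 fold change -1.64, SE 0.12, adjusted p = 2.39e-05 from limma). Ehd4, the most abundant EHD gene at 141.4 ± 0.894 RPKM in control, was at 110.7 ± 4.38 RPKM (SD, n = 3) in siRNA cells and fell less (log2 fold change -0.35, SE 0.06, adjusted p = 0.00145 from limma). Differences in size of change between the EHD genes were not tested, and the order of Ehd2 and Ehd3 turns when the plain ratio of means replaces log2(RPKM + 1).

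Pacsin3, known from muscle, was at 5.22, 3.57 and 4.54 RPKM in control and 1.45, 1.35 and 1.42 RPKM in siRNA libraries (log2 fold change -1.17, SE 0.12, adjusted p = 0.000128 from limma). Its relative Pacsin2 was far more abundant in both groups. Murc (Cavin4), the muscle cavin, was low at 0.313, 0.411 and 0.376 RPKM in control and 0.102, 0.126 and 0.289 RPKM in siRNA libraries (adjusted p = 0.0453 from limma). The muscle caveolin Cav3 and the neuronal Pacsin1 were under 0.1 RPKM in every library.

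Among genes of scission, actin linkage and phosphorylation of caveolae, 3 of the 8 tested fell, beside 29.8% of all genes tested. Their median was -0.13, beside -0.09 for all genes tested. The kinase Src, which phosphorylates caveolin-1, fell from 11.8 ± 1.06 to 5.66 ± 0.776 RPKM (SD, n = 3; adjusted p = 0.000245 from limma). Its relative Fyn fell by 0.59 on the log2 scale (adjusted p = 0.00018 from limma), and Flna, the filamin that ties caveolae to actin, fell by 0.35 (adjusted p = 0.0166 from limma). All 3 were lower in each siRNA library than in any control library. Dnm2, the dynamin that cuts vesicles from the membrane, was at 94.2 ± 10.9 and 99.2 ± 10.2 RPKM (SD, n = 3), with overlapping groups. Of the 3 flotillin and stomatin scaffolds, Stom, a membrane protein related in topology to caveolin, rose from 89.8 ± 5.52 to 110.0 ± 8.17 RPKM (SD, n = 3; adjusted p = 0.0153 from limma), and the median was 0.21.

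Receptors, channels and enzymes that have been described in caveolae fell in 5 and rose in 2 of 12 tested. The shares of all genes tested were 29.8% and 14.7%, and the median of this list was -0.08. The BMP receptor Bmpr1a fell from 6.60 ± 0.596 to 2.29 ± 0.414 RPKM (SD, n = 3; adjusted p = 9.61e-05 from limma), and the EGF receptor Egfr fell from 2.98 ± 0.402 to 0.885 ± 0.110 RPKM (SD, n = 3; adjusted p = 7.51e-05 from limma). The TGF-beta receptor Tgfbr1 rose from 24.9 ± 2.18 to 43.1 ± 3.01 RPKM (SD, n = 3; adjusted p = 0.000169 from limma). The fatty acid receptor Cd36, which macrophages and adipocytes also express, rose from 1101 ± 101.4 to 1856 ± 190.0 RPKM (SD, n = 3; adjusted p = 0.00124 from limma).

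YAP and TAZ are transcriptional partners of TEAD factors that respond to membrane and cytoskeletal tension and can act on caveola genes. All 11 genes of this list fell, beside 29.8% of all genes tested, with a median of -1.17. Amotl2, a target gene and inhibitor of YAP, was at 30.3, 28.4 and 34.4 RPKM in control and 3.37, 5.05 and 7.95 RPKM in siRNA libraries (log2 fold change -2.37, SE 0.23, adjusted p = 9.28e-05 from limma). Cyr61, a matricellular target, was at 122.3, 113.1 and 133.9 RPKM in control and 22.3, 27.5 and 43.8 RPKM in siRNA libraries and fell by 2.00 on the log2 scale (SE 0.21, adjusted p = 0.000143 from limma). Yap1 itself fell from 8.46 ± 1.26 to 3.34 ± 0.972 RPKM (SD, n = 3; adjusted p = 0.000867 from limma). Groups lay apart for these genes, and siRNA replicate 3 was the highest siRNA library for each. The same held for all 7 caveola genes and for the summed stromal and smooth muscle markers.

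Counted together, the 46 genes of these 5 lists held 39 tested genes, of which 24 fell and 3 rose, beside 29.8% and 14.7% of all genes tested, with a median of -0.41 beside -0.09. Most of those that fell were the 11 YAP/TAZ-TEAD genes and the 5 paralogs. Under the other settings tried, 16 to 24 of these genes fell and 2 to 7 rose.

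Clathrin forms the other main coat of endocytic pits. Of its 16 tested genes, 4 fell and 3 rose, beside 29.8% and 14.7% of all genes tested, with a median of 0.04. With the replicate number as a block, 4 fell and 2 rose. Cltc, the heavy chain, was at 160.3, 178.9 and 203.8 RPKM in control and 182.7, 178.7 and 190.7 RPKM in siRNA libraries, with overlapping groups. The adaptor Epn2 fell from 6.80 ± 0.807 to 2.11 ± 0.629 RPKM (SD, n = 3; adjusted p = 0.000197 from limma) and Eps15 fell by 0.45 on the log2 scale (adjusted p = 0.00124 from limma). Fcho2, an early organizer of the pit, rose by 0.34 (adjusted p = 0.0356 from limma) and Epn1 by 0.22 (adjusted p = 0.0309 from limma). The count of clathrin genes that rose was 0 without control replicate 1, control replicate 2 or siRNA replicate 3, and 0 after rescaling each library to the same sum. It was 4 after median ratio scaling and 6 after quantile normalization.

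**Figure D2:**
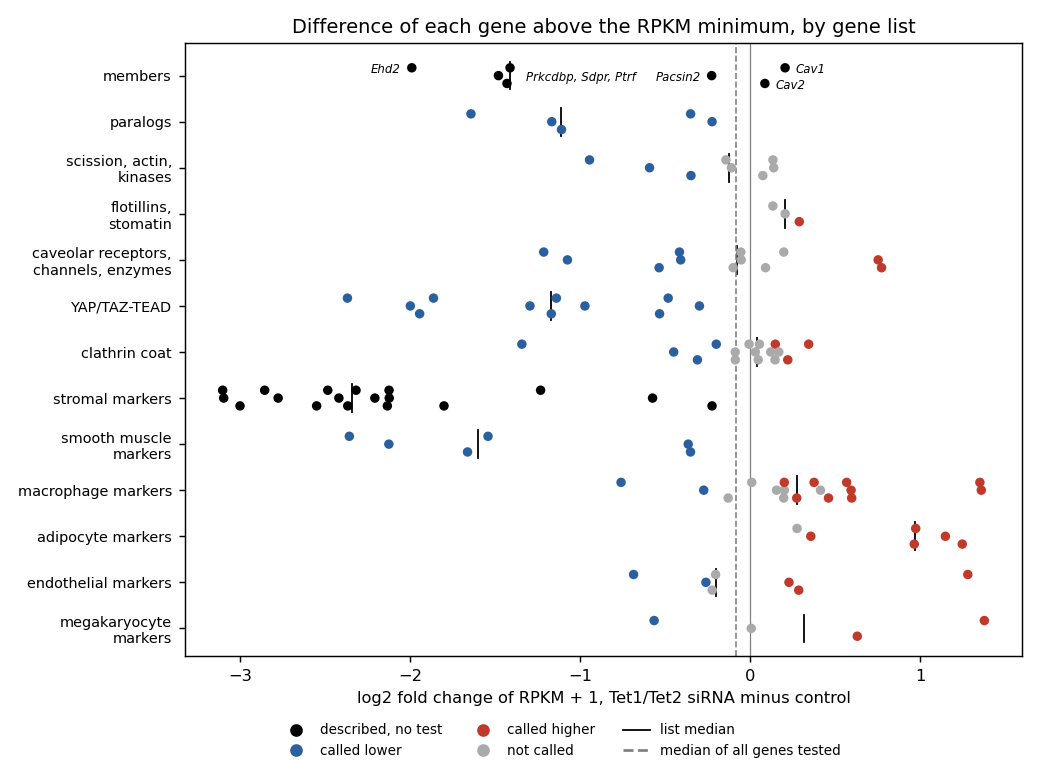
Log2 fold change of RPKM + 1, Tet1/Tet2 siRNA minus control, for each gene above the RPKM minimum by list, with black points for the 7 genes and the stromal markers, described without a test, blue for genes called lower, red for genes called higher and gray for those not called, a bar at each list's median and a dashed line at -0.09, the median of all 13266 genes. Cav1 and Cav2 lie right of zero, while the stromal list has its median at -2.34 and the YAP/TAZ-TEAD list at -1.17.

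Genes beside the 7 on the chromosome were compared next, since Cav1 and Cav2 are adjacent. On chromosome 6, Tes, a focal adhesion protein before Cav2, fell from 30.5 to 21.3 RPKM (log2 fold change -0.50, SE 0.06, adjusted p = 0.000259 from limma), and Capza2, an actin capping protein beyond Cav1, fell from 229.8 to 175.2 RPKM (log2 fold change -0.39, SE 0.07, adjusted p = 0.00227 from limma). Met, the hepatocyte growth factor receptor between Cav1 and Capza2, was at 1.90, 2.13 and 2.04 RPKM in control and 2.17, 1.92 and 2.12 RPKM in siRNA libraries and overlapped, as did Cav1 and Cav2. Tfec, a transcription factor before Tes, was at 7.61, 8.26 and 6.81 RPKM in control and 9.28, 9.23 and 8.50 RPKM in siRNA libraries, all above control, and was not called (log2 fold change 0.23, SE 0.09, adjusted p = 0.0703 from limma). Beside Ptrf, Stat3 fell by 0.51 on the log2 scale (adjusted p = 0.00031 from limma), while Atp6v0a1 rose by 0.22 (adjusted p = 0.0114 from limma) and Naglu by 0.45 (adjusted p = 0.000497 from limma). Nop53, listed as Gltscr2 and 884 bases from Ehd2, was at 42.9 and 39.7 RPKM with overlapping libraries. Of 24 neighbours in all, 21 were tested, 9 fell and 2 rose, beside 29.8% and 14.7% of all genes tested, and nothing particular to these loci is read from the counts.

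The level of Cav1 was also compared with every gene of at least 1 RPKM on average. Over the 6 libraries, which share the contrast of 3 against 3 and carry the high Cav1 value of siRNA replicate 3, the genes with the highest Pearson correlation among 11066 were Rgs16 (r = 0.996), 4930523C07Rik (r = 0.977), St7l (r = 0.957), Zfp868 (r = 0.955) and Sap25 (r = 0.948). Rgs16, a regulator of G protein signalling, was at 8.35, 8.90 and 7.92 RPKM in control and 7.64, 10.0 and 16.2 RPKM in siRNA libraries, with replicate 3 the highest as for Cav1. The correlation with Cav1 over the same 6 libraries was 0.48 for Cav2, -0.23 for Ptrf, -0.32 for Sdpr, -0.26 for Prkcdbp, -0.30 for Ehd2 and -0.23 for Pacsin2.

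Promoters were read because TET enzymes act on methylated cytosine in CG pairs and because the cavins and Ehd2 were lower together while Cav1 and Cav2 were not. Methylation was not measured in these libraries. RefSeq sequence on GRCm38.p6 was matched for 6 of the 7 genes, all but Prkcdbp, and the 250 bases before the RefSeq start were read. That start lies inside the GENCODE span given above for Ptrf, at 100970617, and for Ehd2, at 15967535, so the window of Ptrf lies within its span and that of Ehd2 reaches into its span, and the counts hold for these starts. They held 10 CG pairs in Cav1, 10 in Cav2, 12 in Ptrf, 12 in Ehd2, 18 in Pacsin2 and 2 in Sdpr. Across 27018 promoters of this length the median was 6, with 2 and 16 at the 25th and 75th percentiles. The low count of Sdpr was shared or exceeded by 80.6% of promoters, against 38.2% for Cav1 and Cav2 and 33.8% for Ptrf. How these counts relate to the levels was not tested. Motifs were searched on both strands. GGAATG, the TEAD element, was found in Ptrf alone of the 6, and in 12.6% of all promoters. GGGCGG, the GC box, which itself holds a CG pair, was found in all but Sdpr and in 33.0% of promoters, and CCAAT in all but Cav1 and in 34.5%.

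The sequences of both caveolins and of a pair of cavins are shown because they carry these counts, 5′ to 3′ on the strand of the gene, with CG pairs in capitals. They cover chr6:17306085-17306334 on the plus strand for Cav1, chr6:17280935-17281184 on the plus strand for Cav2, chr11:100970618-100970867 on the minus strand for Ptrf and chr1:51288876-51289125 on the plus strand for Sdpr.
Cav1: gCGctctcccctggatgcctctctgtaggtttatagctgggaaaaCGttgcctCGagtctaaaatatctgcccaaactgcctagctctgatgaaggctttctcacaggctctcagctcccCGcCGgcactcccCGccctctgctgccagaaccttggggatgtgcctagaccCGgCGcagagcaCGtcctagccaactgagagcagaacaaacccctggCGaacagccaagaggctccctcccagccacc
Cav2: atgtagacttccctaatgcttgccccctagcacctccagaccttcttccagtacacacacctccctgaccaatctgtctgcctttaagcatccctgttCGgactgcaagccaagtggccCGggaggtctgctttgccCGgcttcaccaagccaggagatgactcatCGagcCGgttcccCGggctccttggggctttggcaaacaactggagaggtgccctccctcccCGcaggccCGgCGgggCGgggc
Ptrf: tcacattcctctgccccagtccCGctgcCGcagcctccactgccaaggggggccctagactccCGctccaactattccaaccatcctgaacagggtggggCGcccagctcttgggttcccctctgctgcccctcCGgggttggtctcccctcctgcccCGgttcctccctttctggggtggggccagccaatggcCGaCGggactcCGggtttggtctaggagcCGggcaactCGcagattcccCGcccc
Sdpr: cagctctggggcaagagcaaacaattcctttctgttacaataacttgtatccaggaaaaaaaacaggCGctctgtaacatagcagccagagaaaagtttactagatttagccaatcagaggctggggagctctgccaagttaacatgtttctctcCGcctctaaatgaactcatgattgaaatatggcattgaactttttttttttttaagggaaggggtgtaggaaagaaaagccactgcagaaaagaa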

How the data were processed

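RNA-seq libraries of control (n = 3) and Tet1/Tet2 siRNA-treated (n = 3) mouse BMMSCs were examined. The authors trimmed adaptors, mapped to GRCm38, quantified genes with DNASTAR Lasergene and deposited linear RPKM, named FPKM in the methods. The methods give passage 1 and the labels passage 2. The deposited p-value column was not used. Where a symbol had several rows (37 symbols), the one with the highest mean was taken. Values were compared as log2(RPKM + 1) in genes averaging 0.1 RPKM or more, using lmFit and eBayes (trend, two-sided) of limma 3.58.1 under R 4.3.3. Adjustment was by Benjamini-Hochberg over 13266 genes, and a gene was called at an adjusted p under 0.05. An exact permutation test of 3 against 3 cannot go below p = 0.1.

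Depth was the total, found with numpy 2.4.6 and pandas 2.3.3 under Python 3.11.15, at which low values of single-transcript GENCODE M21 genes came closest to whole reads. Between 55.0% and 61.1% lay within 0.1 of a whole read, so reads are approximate and no count test was run. Figures were drawn with matplotlib 3.10.9.

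The 7 genes and the gene lists were chosen with earlier results of these data known, and the lists shared no gene. Of each list, all called genes were named where up to 4 were called, otherwise the 2 higher and 2 lower with the largest absolute log2 fold change, and all paralogs. The nearest 2 protein-coding neighbours on each side, of which those beside Cav1 and Cav2 and a few others are given, and the 5 genes most correlated with Cav1 were also taken. Adipoq, Dnm2, Yap1 and Cltc were named after their values were seen.

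Replicate numbers are shared between groups. Deviations from group means correlated across genes with r of 0.149, 0.117 and 0.462 for replicates 1, 2 and 3, all over 0.1, so a fit with the number as a block was added. Control 1 with siRNA 2 reached 0.332, and neither labels nor paper say what a number stands for. Further alternatives were pseudocounts of 0.1 and 0.01, filters of none and 1 RPKM, 3 scalings (equal sums, median ratio, quantile), centring on stromal markers, eBayes lacking the trend, summed rows and each library left out.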

Additional observations from a re-analysis of the deposited data

How the results depend on the processing

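Directions in RPKM held for the 5 lower genes under every other scaling. The sign turned when each library was centred on its stromal markers, with 0.01 RPKM added in place of 1. The log2 difference was then 0.77 for Ptrf, 0.23 for Sdpr, 0.50 for Prkcdbp, 0.10 for Ehd2 and 2.00 for Pacsin2. Libraries of Sdpr, Prkcdbp and Ehd2 overlapped on that scale. Cav1 stood at 2.46 and Cav2 at 2.32. Stromal markers were lower in siRNA libraries, so every gene shifts upward by construction, while the sign of each depends on its own change. Quantile normalization gave 2627 lower and 3607 higher genes (42.1% lower, against 66.9%), 209 higher past a fold of 2, 2 of the 7 genes higher without overlap, 0.37 for Cav1, 0.20 for Cav2, -0.14 for Pacsin2, 7 of the 39 tested genes of the 5 caveola pathway lists and 6 clathrin genes higher, and 1 macrophage and 1 endothelial marker lower. Median ratio scaling gave 55.7% lower, 1 of the 7 genes higher without overlap, 0.17 for Cav2, -0.15 for Pacsin2, 7 pathway list genes higher and 1 macrophage marker lower. Equal library sums gave 0.03 for Cav2, -1.76 for Sdpr, -0.29 for Pacsin2 and 0 clathrin genes higher. With no filter, 2514 genes were lower and 1230 higher, 1 clathrin gene was higher, 1 macrophage marker was lower, and 1 endothelial marker was lower, 1 endothelial marker was higher and 1 megakaryocyte marker was higher, with more genes tested. At a mean of at least 1 RPKM, 1 endothelial marker was lower and 1 higher, and 0 megakaryocyte markers were lower and 1 higher. Only Kdr and Vwf of the endothelial list and Pf4 of the megakaryocyte list were tested at that filter. Pseudocounts of 0.1 and 0.01 gave -1.93 and -2.01 for Sdpr, 1438 and 1590 genes lower past a fold of 2, and 290 and 368 higher. Ratios of group means gave 1571 and 359. The replicate block gave 4468 lower and 2248 higher genes, and in this balanced design it leaves fold changes as they are. Leaving out each library in turn gave 3016 to 4142 lower genes, 0.04 to 0.35 for Cav1, 0.05 to 0.14 for Cav2, -2.18 to -1.78 for Ehd2 and 0 to 1 of the 7 genes higher without overlap, which was Cav1 without siRNA replicate 1 and Cav2 without siRNA replicate 2. It gave 2 to 6 pathway list genes higher, with 6 without control replicate 3, and 0 to 3 clathrin genes higher, with 0 without control replicates 1 or 2 or siRNA replicate 3 and 1 without siRNA replicates 1 or 2. It gave 1 to 2 macrophage markers lower, with 1 without control replicate 2 or siRNA replicates 1 or 2, 1 to 3 endothelial markers lower, with 1 without siRNA replicates 1 or 2, and 1 to 3 higher, with 1 without siRNA replicate 1. The cause was not tested where none is named.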
